A study of Homo sapiens with 12 samples.

Results

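Expression of 10 epithelial lineage transcription factors was followed in MCF10A cells during induced TAZ activity. The genes were ELF3, EHF, GRHL1, GRHL2, GRHL3, OVOL1, KLF4, KLF5, GATA3 and TFAP2A, taken by symbol from the 60483 gene rows of each library, and each of the 10 was found. Of these, 8 passed the filter on low counts together with 14822 of all genes, and GRHL2 and OVOL1 did not. MCF10A is a non-transformed human mammary epithelial line, and its cells carried a tetracycline-inducible transgene for TAZ-4SA, a constitutively active form of the transcriptional co-activator TAZ. Without doxycycline (No Dox) the transgenic cells served as the baseline, and the other groups spent 24 h, 48 h or 72 h in 0.05 µg/mL Dox, with 3 RNA-seq libraries in each of the 4 groups. All 12 libraries came from transgenic cells, so Dox itself, TAZ-4SA and time in culture cannot be told apart, and nothing in the labels says whether replicates were separate cultures, so that p-values measure the spread between these libraries only.

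Epithelial lineage factors bind DNA in enhancers and promoters of adhesion, junction, keratin and barrier genes and keep epithelial cells in their identity. ELF3 and EHF are epithelium-specific ETS factors, the GRHL proteins are grainyhead factors of the epidermal barrier and of cell junctions, OVOL1 is a zinc finger repressor that opposes mesenchymal genes, KLF4 and KLF5 are Krüppel-like zinc finger factors of differentiating and proliferating epithelium, GATA3 specifies the luminal lineage of the mammary gland, and TFAP2A is an AP-2 factor of skin and mammary epithelium. TAZ binds DNA through TEAD factors, often beside AP-1, and mammary cells with high TAZ activity are known to take on basal or mesenchymal traits.

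Total counts were 15382564 to 26570132 per library, with 17873 to 19432 genes having at least 1 count. WWTR1, the gene of TAZ, averaged 71.7 ± 2.88 CPM without Dox (SD, n = 3 each, in counts scaled to library size), 887 ± 68.1 CPM at 24 h, 844 ± 73.6 CPM at 48 h and 994 ± 59.3 CPM at 72 h, so the Dox libraries carried the label's transcript, although native and transgene reads cannot be told apart. All 11 mammary epithelial markers had counts in every group and summed to 6960 to 9960 CPM in Dox, against 9640 to 10300 CPM in No Dox. Markers of other cell types summed to far less than the mammary epithelial markers, and moved with Dox. The 6 fibroblast markers summed to 1.17 to 4.72 CPM in Dox, against 54.0 to 56.1 CPM in No Dox, with COL1A2, COL3A1 and PDGFRA at 0 in every group. The 5 endothelial markers summed to 0.242 to 12.5 CPM in Dox, against 33.6 to 34.8 CPM in No Dox, with CDH5 and VWF at 0 in No Dox. The 6 leukocyte markers summed to 4.31 to 9.92 CPM in Dox, against 21.2 to 26.1 CPM in No Dox, with CD3E at 0 throughout. In No Dox most of these sums came from DCN at 50.1 CPM, KDR at 27.6 CPM and CD14 at 21.1 CPM. In Dox, COL1A1 at 1.53 to 2.43 CPM and CSF1R at 2.68 to 5.02 CPM as group means exceeded DCN (for COL1A1) and CD14 (for CSF1R). The part of these genes in the results was not tested. In bulk RNA, fewer cells of a type and less RNA per cell cannot be told apart.

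Promoters of 4 members are shown first, those of ELF3, EHF and GRHL3, which fell the most at 24 h, and that of GATA3, the only member called higher against No Dox. RefSeq windows on GRCh38.p14, from 250 bases before to 50 bases after a transcript start, were at hand for 8 members as 17 windows. Letters in capitals are matches to any of 7 motifs searched on both strands, which were GGAATG for TEAD factors, TGANTCA for AP-1, AACCNGTT for grainyhead factors, AGATAA for GATA factors, AGGAAGT for ETS factors, TATAAA for the TATA box and CCACCC for Krüppel-like factors. Where a gene had several windows (2 for EHF, 2 for GRHL3 and 6 for GATA3), that of the most upstream start is shown. All 4 windows lie on the plus strand, ELF3 at chr1:202010337-202010636, EHF at chr11:34624007-34624306, GRHL3 at chr1:24319107-24319406 and GATA3 at chr10:8045083-8045382.
ELF3: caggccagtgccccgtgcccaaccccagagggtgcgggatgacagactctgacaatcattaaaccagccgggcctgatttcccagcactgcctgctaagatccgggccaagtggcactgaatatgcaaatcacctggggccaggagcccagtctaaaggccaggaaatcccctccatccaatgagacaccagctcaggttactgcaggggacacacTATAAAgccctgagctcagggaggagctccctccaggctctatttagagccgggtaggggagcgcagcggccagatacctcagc
EHF: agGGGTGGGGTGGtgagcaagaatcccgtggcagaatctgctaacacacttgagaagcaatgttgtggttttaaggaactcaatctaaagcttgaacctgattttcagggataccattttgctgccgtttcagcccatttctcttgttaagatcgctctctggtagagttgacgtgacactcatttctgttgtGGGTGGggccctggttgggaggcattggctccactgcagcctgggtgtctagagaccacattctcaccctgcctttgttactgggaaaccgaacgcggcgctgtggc
GRHL3: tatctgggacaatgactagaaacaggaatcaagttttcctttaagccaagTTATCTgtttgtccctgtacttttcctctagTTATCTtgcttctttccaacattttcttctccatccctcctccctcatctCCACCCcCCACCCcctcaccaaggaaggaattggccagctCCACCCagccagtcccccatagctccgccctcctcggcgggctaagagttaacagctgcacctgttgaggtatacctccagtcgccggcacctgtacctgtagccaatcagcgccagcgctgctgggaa
GATA3: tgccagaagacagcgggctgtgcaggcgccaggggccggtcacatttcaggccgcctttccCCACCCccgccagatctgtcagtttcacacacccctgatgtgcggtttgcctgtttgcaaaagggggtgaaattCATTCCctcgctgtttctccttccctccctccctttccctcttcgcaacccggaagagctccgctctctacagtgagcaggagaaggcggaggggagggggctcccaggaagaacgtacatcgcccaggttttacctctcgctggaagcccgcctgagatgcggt
In the ELF3 window the only match was a TATAAA 34 bases before the start. The EHF window held 3 Krüppel-like matches, of which 2 overlap, and the GRHL3 window held 3 Krüppel-like matches and 2 GATA matches, at 200 and 169 bases before the start. The GATA3 window held CATTCC, the reverse complement of the TEAD letters, 115 bases before the start, and 1 Krüppel-like match. The other EHF window held AGATAA 236 bases before its start, and the other GRHL3 window CCACCC 42 bases before its start. Of the 17 member windows, the GATA3 window shown was the only one with the TEAD letters, which stand in 14.0% of 35116 promoters of the same length. The only AP-1 match was a TGACTCA 8 bases before another GATA3 start (chr10:8060207-8060506), with AP-1 letters in 7.71% of all promoters. No member window held the grainyhead letters (1.73% of promoters). Krüppel-like letters were in 9 of the 17 (34.3% of promoters), TATA letters in 4 (11.5%), GATA letters in 2 (10.3%) and ETS letters in 1 (8.24%), the KLF4 window. These matches describe letters in short windows and say nothing of binding.

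At 24 h, 4 of the 8 tested members were called lower in Dox than in No Dox and 0 were called higher (0 also in DESeq2). Another 2, GATA3 and TFAP2A, were higher at an unadjusted and an adjusted edgeR p under 0.05 but stayed under the fold threshold. The DESeq2 count used that threshold too. Calls needed an edgeR quasi-likelihood adjusted p under 0.05 together with a log2 fold change of 1 or more in size, and by that rule 17.7% of all genes tested were called lower and 12% higher. The 4 were ELF3, EHF, GRHL3 and KLF5. At 48 h, ELF3, EHF, GRHL3 and KLF4 were called lower and GATA3 higher, where 14.4% of all genes were called lower and 10.6% higher. At 72 h, the calls were ELF3, EHF and KLF4 lower and GATA3 higher, against 12.3% lower and 10.2% higher over all genes. Median log2 fold changes of the 8 members were -1.20, -0.92 and -0.40 at 24, 48 and 72 h, beside -0.03, -0.01 and -0.02 over all genes tested. These comparisons share the No Dox libraries. Each of the 8 had counts in every library, the lowest value being 15 for EHF in 1 library at 48 h.

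**Figure D1:**
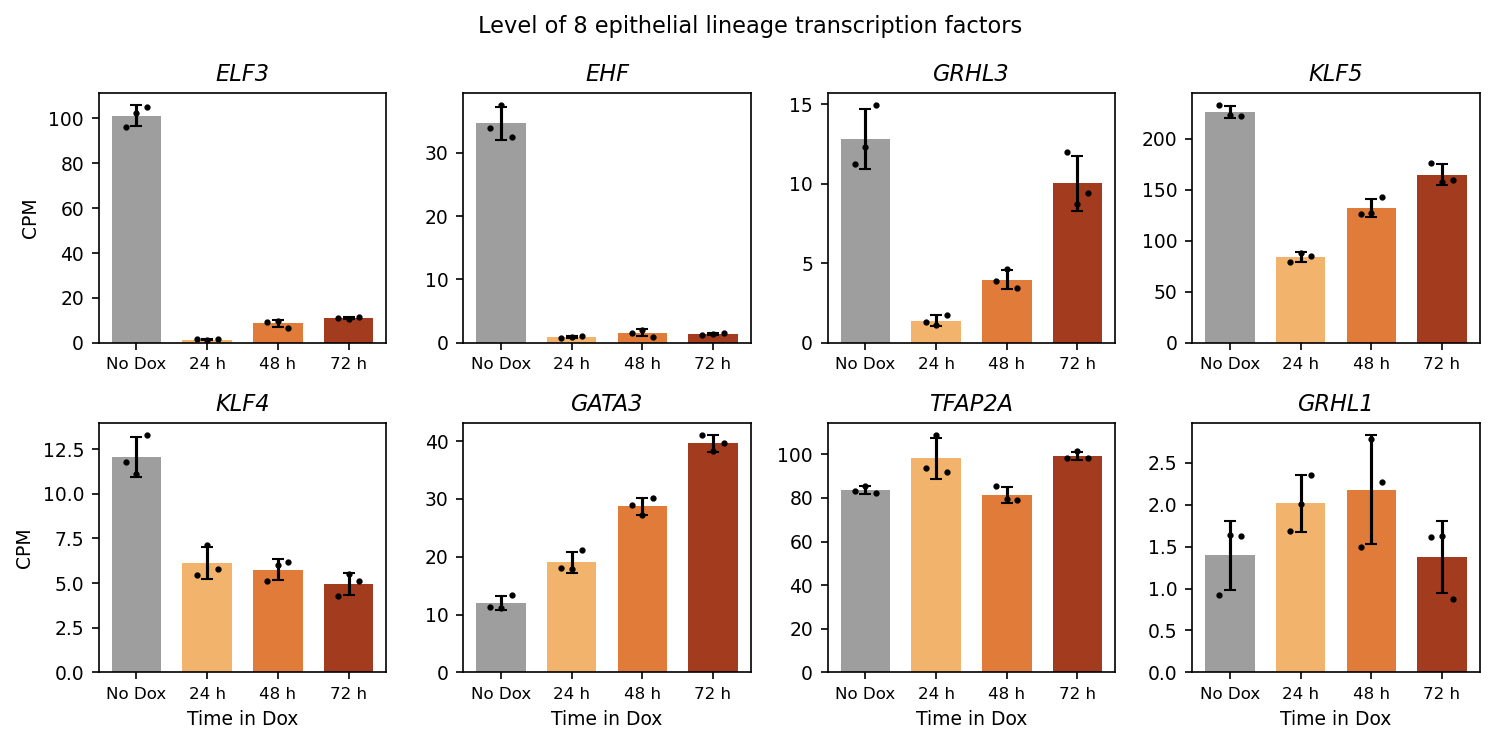
Level in CPM (y axis of each panel, from 0) by time in Dox for the 8 tested members; bars are means of 3 libraries, error bars the SD, and points the single libraries. ELF3 and EHF stayed near the floor of their panels in all 9 Dox libraries, GRHL3 and KLF5 were lowest at 24 h, KLF4 stayed low, and GATA3 was highest at 72 h.

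Among the ETS factors, ELF3 had the largest fall of any member at 24 h. Its values in the order of replicates 1 to 3 were 96.3, 102 and 105 CPM without Dox, 1.54, 1.13 and 1.51 CPM at 24 h, 9.29, 9.88 and 6.74 CPM at 48 h, and 11, 10.8 and 11.6 CPM at 72 h. Every Dox library lay below every No Dox library, and the 24, 48 and 72 h groups did not overlap each other either. ELF3 fell 72.5-fold at 24 h, 11.5-fold at 48 h and 9.06-fold at 72 h against No Dox, with log2 fold changes of -6.18 ± 0.12, -3.53 ± 0.09 and -3.18 ± 0.09 (SE, edgeR adjusted p = 2.74e-20, 2.61e-18 and 8.14e-18). Within Dox it rose 6.29-fold between 24 and 48 h (log2 fold change 2.65 ± 0.16, edgeR adjusted p = 5.7e-11), while the step to 72 h was 0.35 ± 0.11 with adjusted p = 0.0158, under the fold threshold. An antisense transcript, ELF3-AS1, overlaps ELF3 and had 111 counts over the 3 No Dox libraries and 4, 7 and 5 counts over those of 24, 48 and 72 h. ELF3 had 5845 counts in No Dox and 81, 518 and 702 at 24, 48 and 72 h. The libraries mark strand, but whether the counting used it is not given in the sources used here, so reads of ELF3 and ELF3-AS1 cannot be told apart. A long noncoding RNA on the same strand also overlaps ELF3, with 47 counts in No Dox and 0, 2 and 4 at 24, 48 and 72 h. Reads shared with other genes added an SD of at most 3.08% to an ELF3 count and 0 to that of the other members with counts.

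EHF, the other epithelium-specific ETS factor, also fell at every time and stayed low. Its libraries were at 34.0, 37.5 and 32.5 CPM without Dox, 0.748, 0.882 and 1.09 CPM at 24 h, 1.59, 2.09 and 0.973 CPM at 48 h, and 1.27, 1.32 and 1.60 CPM at 72 h. The Dox and No Dox libraries did not overlap, whereas the 48 h libraries spanned those of the other Dox times in part. Against No Dox it was 38.5-fold, 21.4-fold and 24.3-fold lower at 24, 48 and 72 h (log2 fold change -5.27 ± 0.17, -4.42 ± 0.15 and -4.61 ± 0.16, edgeR adjusted p = 5.99e-17, 2.66e-16 and 1.67e-16). The folds at 24 and 48 h depended on effective lengths, with which edgeR gave 21.6-fold at 24 h and 12.8-fold at 48 h, and DESeq2 21.4-fold and 12.1-fold. Between 48 and 24 h the log2 fold change was 0.85 ± 0.26 (edgeR adjusted p = 0.0148), under the fold threshold, and without replicate 3 of 48 h it was 1.05 and past it. Over the other scalings, filters, fits and omissions it went as low as 0.56, and the edgeR or DESeq2 adjusted p as high as 0.295. At 72 h ELF3 stood 8.01-fold above its own 24 h level (log2 fold change 3.0 ± 0.16, edgeR adjusted p = 1.24e-12), and the same contrast was 0.66 ± 0.27 for EHF (adjusted p = 0.0371), under the fold threshold. Under the alternative settings this EHF contrast ranged from 0.17 to 0.80, with an edgeR or DESeq2 adjusted p of up to 0.78, so the rise was not kept in all of them. Whether the paired factors differ in this was not tested.

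The 3 grainyhead factors had different courses. GRHL3, which drives epidermal barrier genes and wound closure, was at 11.2, 12.3 and 14.9 CPM without Dox, 1.31, 1.13 and 1.75 CPM at 24 h, 3.88, 4.61 and 3.44 CPM at 48 h, and 12, 8.70 and 9.42 CPM at 72 h. The 24 h and 48 h libraries lay below all No Dox libraries, and the 72 h libraries overlapped them. GRHL3 fell 9.29-fold at 24 h and 3.19-fold at 48 h (log2 fold change -3.22 ± 0.19 and -1.67 ± 0.16, edgeR adjusted p = 2.04e-12 and 6.05e-09), and at 72 h its log2 fold change was -0.35 ± 0.14 (adjusted p = 0.0332), not a call. From step to step within Dox it rose 2.91-fold at 48 h over 24 h and 2.50-fold at 72 h over 48 h (log2 fold change 1.54 ± 0.22 and 1.32 ± 0.16, edgeR adjusted p = 1.25e-05 and 2.27e-06). Both step calls were lost when the fold threshold itself was tested (glmTreat), and the call of 72 h over 24 h, 2.86 ± 0.19 (edgeR adjusted p = 8.9e-11), was kept. STPG1, on the other strand of the GRHL3 locus, had 460 counts without Dox and 647, 602 and 808 counts at 24, 48 and 72 h, a different course from that of GRHL3.

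GRHL1, which acts on desmosomal cadherin genes in epidermis, was low throughout at 0.877 to 2.78 CPM. It had 23 to 64 counts per Dox library, against 20 to 33 counts per No Dox library, and the 24 h libraries lay just above those of No Dox. Its log2 fold changes of 0.54 ± 0.32, 0.66 ± 0.31 and -0.04 ± 0.33 at 24, 48 and 72 h against No Dox had edgeR adjusted p = 0.132, 0.0649 and 0.916, so no difference was detectable at this depth. GRHL2, the family member known as an activator of CDH1 and CLDN4 in simple epithelia, was listed at 0 in all 12 libraries, 0 of 237663257 counts in all. A floor of 3 counts corresponds to 0.114 to 0.195 CPM per library and covers counting error only. The 0 stood beside abundant CDH1, EPCAM, ESRP1 and ESRP2, and whether it belongs to the cells or to this row of the tables was not tested. CDH1, the E-cadherin gene, averaged 219.9 ± 3.15 CPM without Dox, 180.2 ± 2.06 CPM at 24 h, 260.2 ± 9.82 CPM at 48 h and 335 ± 4.18 CPM at 72 h (SD, n = 3 each), with no call against No Dox. ESRP1 and ESRP2, splicing regulators of epithelial isoforms, were likewise abundant, at 42.5 to 75.3 and 85.3 to 109 CPM as group means.

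OVOL1 had 5, 3 and 4 counts in the No Dox libraries, 1 count over the 24 h libraries, 0 over those of 48 h and 1 over those of 72 h. It was lower in Dox by a count ratio of 12.1 at 24 h (95% exact binomial interval 1.79 to 517) and 13.0 at 72 h (1.92 to 556), and at least 4.05-fold lower at 48 h with a floor of 3 counts over the group. These ratios cover counting error only, and the gene was not tested. OVOL2, its paralog with a known role against ZEB1, was at 7.20 to 12.1 CPM in Dox, against 5.34 to 6.0 CPM in No Dox. Its log2 fold change of 0.97 ± 0.13 at 48 h (edgeR adjusted p = 1.02e-06) was its largest against No Dox and stayed under the fold threshold.

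KLF5, a factor of basal and proliferating epithelium, had the highest CPM of the members without Dox and at 48 and 72 h, and stood below TFAP2A at 24 h. It was at 233, 224 and 222 CPM without Dox, 78.9, 88.4 and 85.1 CPM at 24 h, 126, 128 and 143 CPM at 48 h, and 177, 158 and 160.2 CPM at 72 h. No 2 groups overlapped, and every Dox library lay below every No Dox library. KLF5 fell 2.69-fold at 24 h (log2 fold change -1.43 ± 0.06, edgeR adjusted p = 6.46e-15). At 48 and 72 h the log2 fold changes of -0.78 ± 0.06 and -0.45 ± 0.06 had edgeR adjusted p = 1.45e-10 and 5.76e-07 but were under the fold threshold. Its 72 h level over that of 24 h, at 0.97 ± 0.06, was also under it, and became a call at 1.01 without replicate 2 of 24 h and at 1.0 without replicate 2 or 3 of 72 h.

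KLF4, known for growth arrest and barrier formation in differentiating epithelium, did not come back within the 72 h. Its libraries were at 11.8, 11.1 and 13.3 CPM without Dox, 5.47, 7.16 and 5.81 CPM at 24 h, 5.12, 6.0 and 6.16 CPM at 48 h, and 4.30, 5.51 and 5.11 CPM at 72 h. All Dox libraries were below all No Dox libraries, and the Dox times overlapped each other. KLF4 fell 2.10-fold at 48 h and 2.44-fold at 72 h (log2 fold change -1.07 ± 0.13 and -1.29 ± 0.14, edgeR adjusted p = 3.39e-07 and 3.08e-08). At 24 h the log2 fold change of -0.97 ± 0.13 (edgeR adjusted p = 1.02e-06) lay just under the fold threshold. It passed without replicate 2 of No Dox (-1.03) or of 24 h (-1.10), while the 48 h call was lost without replicate 3 of No Dox or replicate 1 of 48 h (-0.99 each), and with glmTreat.

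GATA3 was the only member called higher against No Dox. It was at 11.4, 11.2 and 13.3 CPM without Dox, 18.1, 17.8 and 21.2 CPM at 24 h, 28.9, 27.2 and 30.2 CPM at 48 h, and 41.1, 38.2 and 39.6 CPM at 72 h. No 2 groups overlapped, and each later time lay above the one before it. GATA3 rose 2.39-fold at 48 h and 3.31-fold at 72 h (log2 fold change 1.26 ± 0.09 and 1.73 ± 0.09, edgeR adjusted p = 3.44e-11 and 1.25e-13), and at 24 h its log2 fold change was 0.66 ± 0.09 (adjusted p = 1.22e-06), under the fold threshold. The 48 h call was lost in DESeq2 with effective lengths (0.99). Effective length, the length by which RSEM scales the counts of a gene, was 2492 ± 136 nt for GATA3 at 48 h and 2112 ± 117 nt in No Dox (SD, n = 3 each). The exact two-sided permutation p was 0.1, the smallest that 3 against 3 allow, with an adjusted p of 0.343 over 24 such comparisons. GATA3-AS1, which overlaps GATA3, had 4 counts without Dox and 0, 0 and 1 at 24, 48 and 72 h.

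TFAP2A, the AP-2 alpha gene, kept within a narrow range. Its libraries were at 83.1, 85.6 and 82.2 CPM without Dox, 93.8, 109 and 91.8 CPM at 24 h, 85.6, 79.4 and 79.1 CPM at 48 h, and 98.2, 101 and 98.2 CPM at 72 h. In CPM the 24 h and 72 h libraries lay above those of No Dox, and the 48 h libraries overlapped them. In TPM the 24 h libraries, at 45.7 to 57.1, overlapped those of No Dox, at 42.6 to 46.4. Log2 fold changes of 0.23 ± 0.06 and 0.25 ± 0.06 at 24 and 72 h had edgeR adjusted p = 0.00172 and 0.00118 and were far under the fold threshold, and that at 48 h was -0.04 ± 0.06 (adjusted p = 0.585). The 24 h value ranged from 0.096 to 0.277 under the alternative settings, with an edgeR or DESeq2 adjusted p of up to 0.387. TFAP2A-AS1, on the other strand, had 27 counts without Dox and 49, 60 and 44 counts at 24, 48 and 72 h.

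**Figure D2:**
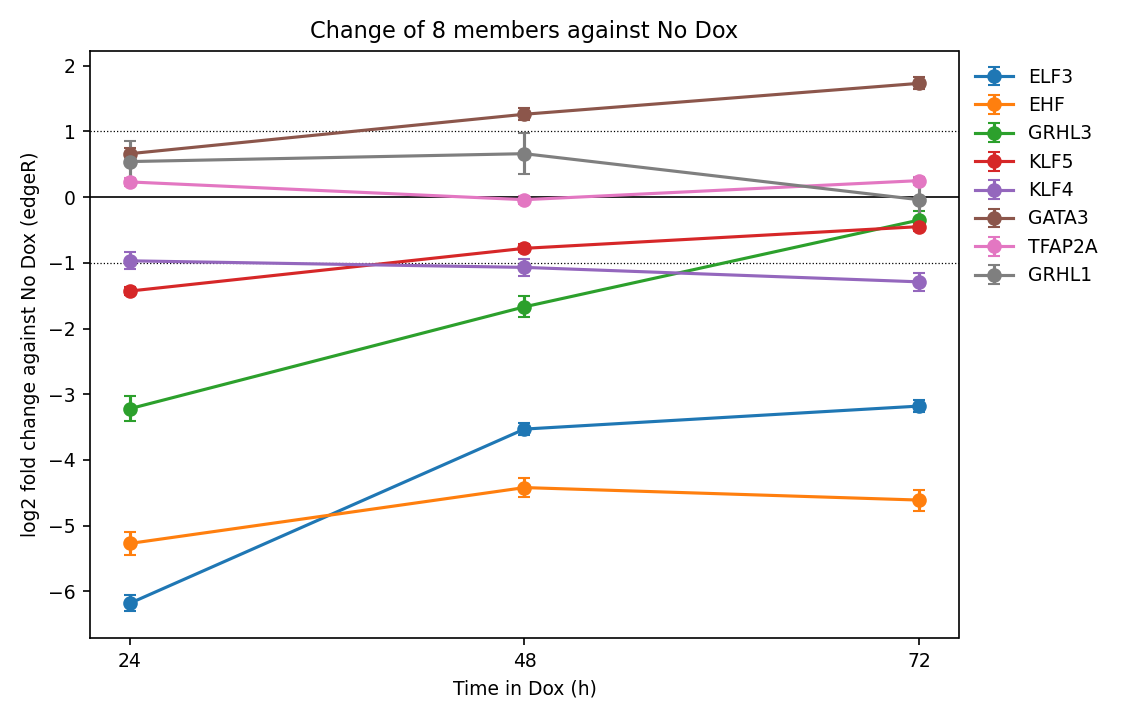
Log2 fold change against No Dox (y axis, edgeR) by time in Dox (x axis, h) for the 8 tested members; error bars are SEs and the dotted lines mark the fold threshold at 1 and -1. ELF3 and EHF lie lowest, GRHL3 runs from -3.22 at 24 h to -0.35 at 72 h, and GATA3 is the only line above 1, at 1.26 and 1.73 at 48 and 72 h.

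Within Dox, calls among the members were all upward. Between 48 and 24 h, ELF3 and GRHL3 were called higher and 0 members lower, where 3.08% of all genes tested were called higher and 1.44% lower. In each of the 3 contrasts within Dox 1 member was lower at an unadjusted edgeR p under 0.05, and 0 were called lower in DESeq2. That of 48 against 24 h, TFAP2A, also had an edgeR adjusted p of 0.00141 and was under the fold threshold. Between 72 and 48 h the only call was GRHL3, higher, where 2.3% of all genes were called higher and 0.938% lower. Between 72 and 24 h, ELF3, GRHL3 and GATA3 were called higher, beside 8.28% of all genes higher and 3.99% lower. The GATA3 contrast, 1.06 ± 0.08 on the log2 scale (edgeR adjusted p = 4.57e-10), lost its call with glmTreat. ELF3 and GRHL3 moved back toward their No Dox level, whereas GATA3 moved further from it. Median log2 fold changes of the 8 members were 0.62, 0.30 and 0.82 in the 3 contrasts, against 0.0025, -0.0036 and 0.01 over all genes.

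Because CPM does not allow for gene length, levels of different members were set side by side in TPM, which scales counts to effective length and library size. Without Dox the order was ELF3 at 94.6 ± 5.97 TPM and KLF5 at 88.8 ± 2.50 TPM, whose libraries overlapped, then TFAP2A at 44.7 ± 1.92 and EHF at 22.1 ± 1.73 TPM (SD, n = 3 each). GATA3, GRHL3 and KLF4 followed at 6.78, 6.34 and 5.81 TPM, each overlapping the next, and GRHL1 at 0.663 TPM. At 24 h TFAP2A (49.7 ± 6.41 TPM) and KLF5 (34.5 ± 2.54 TPM) led, GATA3 stood next at 10.2 ± 1.29 TPM, and ELF3, EHF, GRHL1 and GRHL3 overlapped in turn at 1.20, 1.09, 1.06 and 0.657 TPM. By 72 h KLF5 (69.2 ± 4.69 TPM) and TFAP2A (60.4 ± 10.7 TPM) overlapped, and GATA3 at 21.9 ± 2.75 TPM stood above ELF3 at 13.1 ± 0.858 TPM and GRHL3 at 5.03 ± 0.721 TPM. By mean TPM, ELF3 thus had rank 1 without Dox, where it overlapped KLF5. It had rank 5 at 24 h, where it overlapped EHF and GRHL1, and rank 4 at 72 h.

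**Figure D3:**
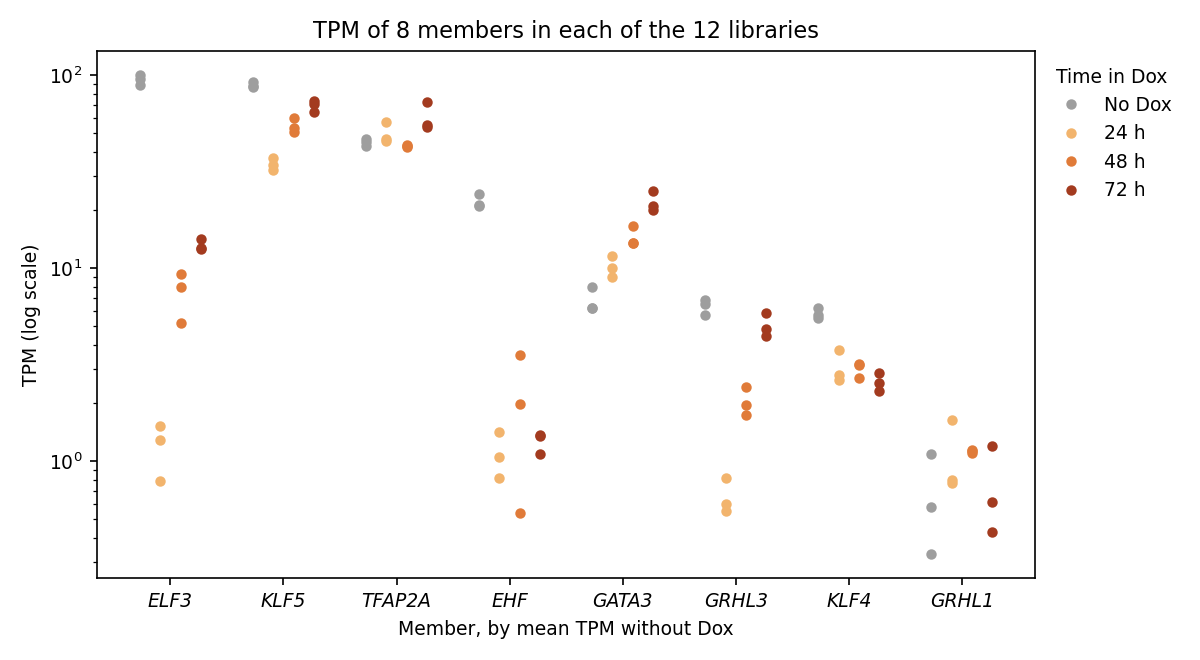
TPM on a log axis (y) of 8 members (x, ordered by their mean without Dox) in each of the 12 libraries; each point is 1 library, coloured by time in Dox. ELF3 and EHF drop at 24 h to the level of GRHL1, near 1 TPM, while TFAP2A stays between 42.2 and 72.7 TPM in all libraries.

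Other factors of epithelial identity moved in both directions. Of 17 listed, 12 were tested, and 5, 4 and 4 were called lower at 24, 48 and 72 h against No Dox, with 2, 0 and 1 higher. Over all genes, 17.7%, 14.4% and 12.3% were called lower and 12%, 10.6% and 10.2% higher. At 48 h 4 were higher at an unadjusted and an adjusted edgeR p under 0.05 but under the fold threshold, and 0 were called higher in DESeq2. Median log2 fold changes of the 12 were -0.01, 0.03 and -0.50. TP63, the master regulator of basal epithelium, averaged 77.4 ± 0.804 CPM without Dox, 4.45 ± 0.452 CPM at 24 h, 2.77 ± 0.728 CPM at 48 h and 1.49 ± 0.118 CPM at 72 h (SD, n = 3 each). It fell 51.4-fold at 72 h (log2 fold change -5.68 ± 0.12, edgeR adjusted p = 6.3e-20) and was lower at 72 h than at 24 h (-1.56 ± 0.17, adjusted p = 8.57e-08), a course opposite in sign to that of ELF3 and GRHL3 within Dox. PRDM1, a repressor in terminal differentiation, fell 2.15-fold at 72 h, with adjusted p = 0.000175. ELF5, the ETS factor of luminal progenitors, was listed at 0 in all 12 libraries.

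Paralogs of the members numbered 27, of which 22 were tested. At 24, 48 and 72 h, 9, 6 and 3 were called lower and 2, 3 and 3 higher, with median log2 fold changes of -0.71, -0.57 and -0.34. Beside them, 17.7%, 14.4% and 12.3% of all genes were called lower and 12%, 10.6% and 10.2% higher. KLF15, a glucocorticoid-responsive Krüppel-like factor, fell 9.70-fold at 24 h and 4.46-fold at 72 h (log2 fold change -3.28 ± 0.15 and -2.16 ± 0.13, edgeR adjusted p = 3.21e-14 and 5.74e-12). KLF10 and KLF13, both transcriptional repressors in many settings, fell 3.06-fold and 2.09-fold at 72 h, with edgeR adjusted p = 3.26e-12 and 3.08e-13. GATA6, a GATA factor of endoderm, rose 2.20-fold at 72 h (log2 fold change 1.14 ± 0.17, edgeR adjusted p = 3.51e-06), beside the 3.31-fold of GATA3.

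Epithelial genes that are regarded as targets of these factors moved in both directions. Of 19 listed, 14 were tested, and 4, 2 and 2 were called lower at 24, 48 and 72 h, with 1 higher each time. Median log2 fold changes were -0.27, 0.13 and 0.17. Of all genes, 17.7%, 14.4% and 12.3% were called lower and 12%, 10.6% and 10.2% higher. KRT15, a basal keratin, averaged 196 ± 9.57 CPM without Dox, 1.65 ± 0.421 CPM at 24 h, 4.36 ± 0.326 CPM at 48 h and 13.8 ± 2.36 CPM at 72 h (SD, n = 3 each). It fell 118-fold at 24 h and 14.3-fold at 72 h and rose 8.20-fold between those times (log2 fold change 3.04 ± 0.16, edgeR adjusted p = 1.09e-12), next to 8.01-fold for ELF3 and 7.28-fold for GRHL3. CLDN4, a claudin of tight junctions, was also called lower at each time. KRT4, a keratin of stratified mucosal epithelium, had 1 count over the No Dox libraries and 87, 1005 and 867 counts over those of 24, 48 and 72 h. Between 72 and 24 h, 5 of the 14 were called higher and 0 lower, beside 8.28% of all genes higher and 3.99% lower. In that contrast 2 were lower at an unadjusted and an adjusted edgeR p under 0.05 but under the fold threshold, and 0 were called lower in DESeq2.

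Mesenchymal repressors of epithelial genes did not move as a group. Of 9 listed, 7 were tested, with 1, 2 and 2 called lower at 24, 48 and 72 h and 1, 0 and 1 higher. Their medians were -0.25, -0.65 and -0.37. The shares over all genes were 17.7%, 14.4% and 12.3% lower and 12%, 10.6% and 10.2% higher. At 48 h 1 was higher at an unadjusted and an adjusted edgeR p under 0.05 but under the fold threshold, and 0 were called higher in DESeq2. ZEB1, a repressor of CDH1, averaged 3.60 ± 0.879 CPM without Dox, 8.51 ± 1.15 CPM at 24 h, 6.01 ± 0.322 CPM at 48 h and 8.07 ± 0.910 CPM at 72 h, and rose 2.27-fold at 72 h (edgeR adjusted p = 1.57e-06). ZEB2 fell 2.78-fold at 72 h (edgeR adjusted p = 2.31e-07). SNAI2, a basal mammary and mesenchymal repressor, fell 5.16-fold at 72 h, to 6.07 ± 0.554 CPM against 31.1 ± 0.206 CPM in No Dox (log2 fold change -2.37 ± 0.09, edgeR adjusted p = 2.89e-15).

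Luminal genes were followed because of GATA3. Of 13 listed, 7 were tested. At each of 24, 48 and 72 h 3 were called higher and 2 lower, with medians of 0.83, 1.0 and 0.88. Shares over all genes were 12%, 10.6% and 10.2% higher and 17.7%, 14.4% and 12.3% lower. KRT8 and KRT18 were among the 3 at each time, and XBP1 at 48 and 72 h only. KRT8 and KRT18, the keratin pair of luminal cells, averaged 211 ± 7.76 and 368 ± 13.8 CPM without Dox. At 24, 48 and 72 h KRT8 stood at 885 ± 61.0, 1650 ± 81.6 and 2229 ± 118 CPM, and KRT18 at 809 ± 56.5, 1562 ± 78.5 and 1920 ± 137 CPM. KRT8 rose 10.6-fold and KRT18 5.22-fold at 72 h (edgeR adjusted p = 4.08e-21 and 1.59e-18). XBP1, a secretory stress factor of luminal cells, rose 2.87-fold at 48 h and 2.16-fold at 72 h (edgeR adjusted p = 6.55e-16 and 1.82e-13). The 2 called lower were AGR2, a secretory chaperone, and PRLR, the prolactin receptor. Among the 11 mammary epithelial markers, KRT8 and KRT18 were higher at 72 h and KRT17, KRT5 and LAMB3, of basal cells, were 3.94-fold, 2.13-fold and 2.36-fold lower. Other markers of basal cells in the same list were not called at 72 h against No Dox. KRT6A stood at 1438 ± 59.2 CPM at 72 h, against 794 ± 40.1 CPM in No Dox, ITGA6 at 308 ± 6.62 CPM, against 313 ± 7.87 CPM in No Dox, and KRT14 at 10.2 ± 0.248 CPM, against 11 ± 0.965 CPM in No Dox (SD, n = 3 each).

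**Figure D4:**
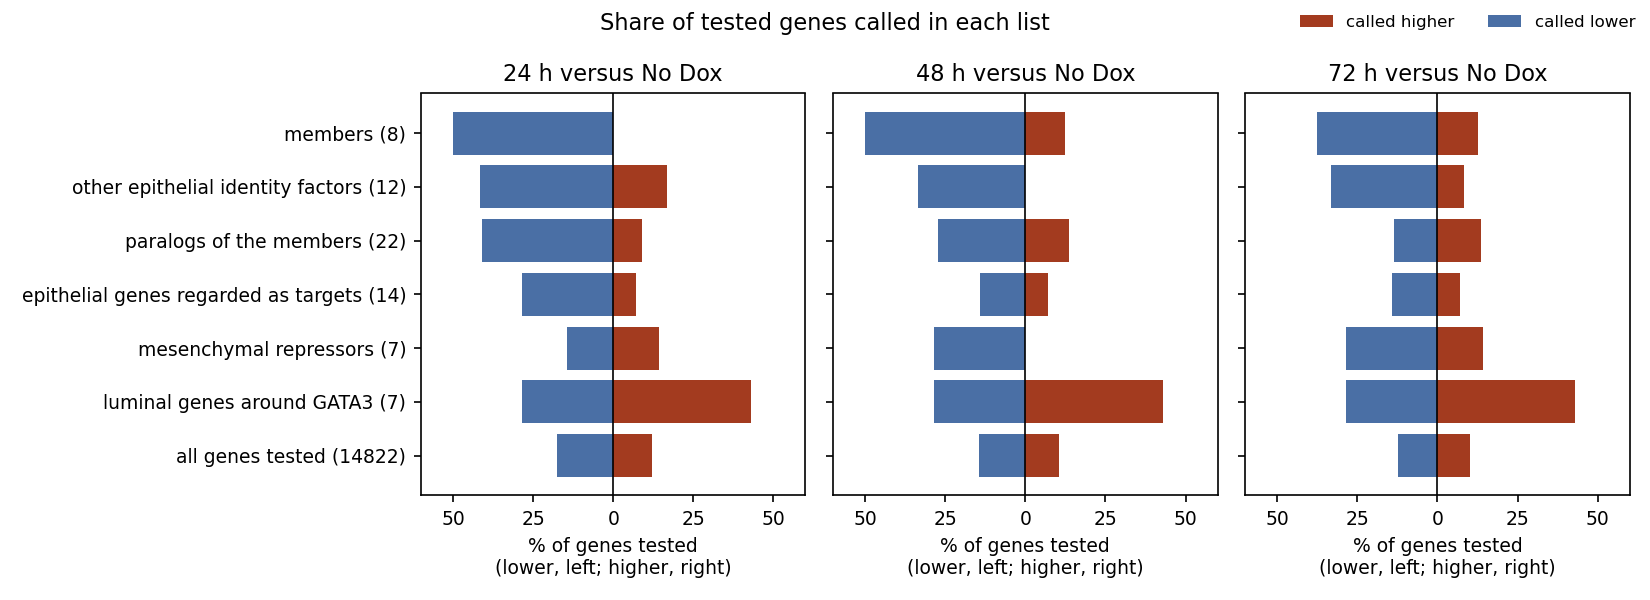
Share of the tested genes of each list called lower (left of 0) and higher (right of 0) against No Dox at 24, 48 and 72 h, in percent, with the number tested in brackets; the bottom bar holds all 14822 genes tested. At 24 h 4 of 8 members and 17.7% of all genes were called lower. Luminal genes had 3 of 7 called higher at each time, beside 12%, 10.6% and 10.2% of all genes at 24, 48 and 72 h.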

How the data were processed

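Poly(A) RNA of 12 MCF10A libraries was sequenced as strand-specific paired ends. The authors aligned reads to GRCh38 with GENCODE version 22 by STAR and estimated gene levels with RSEM (versions not given in the sources used here). The deposited tables hold RSEM expected counts, which divide reads shared by several genes, and TPM, which the authors scaled by effective length. The deposited effective length and the posterior SD of the count served for checks, and the other measures were not used. Symbols were matched by stable identifier for 56321 of 60483 rows, and 4162 had none. Overlapping genes came from GENCODE version 44.

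Expected counts were rounded, filtered with filterByExpr (14822 genes), scaled with TMM and fitted over all 12 libraries in edgeR's quasi-likelihood model, with a mean for each group (R 4.3.3, edgeR 4.0.16, limma 3.58.1). The biological coefficient of variation was 5.71%. CPM used TMM factors. Benjamini-Hochberg adjustment ran over all genes of a comparison, and SEs were derived from the quasi-likelihood F. The procedure was tested on simulated counts. Totals of 15382564 to 26570132 counts set the depth. The members and lists (identity factors, paralogs, targets, mesenchymal repressors, luminal genes, and markers of mammary epithelium, leukocytes, endothelium and fibroblasts) were chosen with earlier results of these data known. Text names all members, overlapping genes on the other strand with counts, WWTR1, TP63, OVOL2, ELF5, ZEB1, ZEB2, SNAI2, CDH1, ESRP1 and ESRP2. It also names up to 3 genes per list and direction with the largest call at 72 h and at least 5 CPM in the higher group. A gene that this rule takes is not reported here. CLDN4, AGR2, PRLR, KRT6A, KRT14, ITGA6, EPCAM, COL1A1 and CSF1R were named after their values were seen. Alternatives were other scaling factors, effective lengths, DESeq2 (1.42.0), filters, thresholds, fits of the groups compared, a block for the replicate number, and omission of single libraries. Ratios at low counts carry 95% exact binomial intervals.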

Additional observations from a re-analysis of the deposited data

Results flagged for a closer look

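The change against No Dox differed between 72 h and 24 h for 3 members, by the edgeR test of 72 h against 24 h with the fold threshold. ELF3 was lower than in No Dox by less at 72 h than at 24 h, by a log2 difference of 3.0, with 3 of 3 libraries of 72 h above all of 24 h. For GRHL3 the difference was 2.86, again with no overlap. GATA3 differed by 1.06, with its 72 h change the larger in the upward direction, and lost this call with glmTreat. KLF5, at 0.97 (edgeR adjusted p = 2.2e-11), lay just under the fold threshold. Outliers within groups were not tested, since each group had 3 libraries.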

How the results depend on the processing

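Over 23 settings, the 48 comparisons of tested members gave 1104 alternative values, of which 1073 kept their side of the threshold, 7 lost a call and 24 gained one (17 of them by dropping the fold threshold). The sign differed in 11 values over 5 comparisons, none of them called under any setting (GRHL1 at 72 h against No Dox and at 48 h against 24 h, KLF4 at 48 h against 24 h, EHF at 72 h against 48 h, and TFAP2A at 72 h against 24 h). With no fold threshold, genes higher and lower numbered 5495 and 5647 at 24 h, 5342 and 5304 at 48 h, and 5088 and 5164 at 72 h against No Dox, 2706 and 2708 at 48 h against 24 h, 2763 and 2979 at 72 h against 48 h, and 4517 and 4475 at 72 h against 24 h. Members higher were then 2 at 24 h and 2 at 72 h against No Dox with 5 lower at 72 h, 5 higher and 1 lower at 48 h against 24 h, 5 higher at 72 h against 48 h, and 5 higher at 72 h against 24 h. These rises come from the lower threshold itself. With glmTreat, 1410 genes were lower at 48 h, and 976 were higher and 1179 lower at 72 h, against No Dox. In the same test 126 were higher and 51 lower at 48 h against 24 h (1 member higher), 18 and 8 at 72 h against 48 h (0 members higher), and 465 and 190 at 72 h against 24 h. DESeq2 with effective lengths called 0 members higher at 48 h. With upper-quartile factors KLF4 was called at 24 h (-1.03). Leaving out 1 library gave 4 to 5 members lower at 24 h, 3 to 4 at 48 h and 3 at 72 h. Deviations from group means correlated at over 0.1 in 4 of 18 same-number pairs of libraries (mean 0.0276). They did so in 11 of 36 pairs of other numbers (mean -0.0145). These descriptive values cannot settle whether replicate numbers carry a pairing. A replicate block called 1767 genes higher and 2613 lower at 24 h and changed 0 member calls.

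OVOL1 and GRHL1 are limited by depth, and EHF at 15 to 48 counts per Dox library has large relative errors. Effective lengths of low members are unstable, so their TPM is less certain than their CPM.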

Other observations

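RSEM's effective length was compared over 24 pairs of member and Dox time, and 7 reached the smallest exact two-sided permutation p that 3 against 3 libraries allow, 0.1, with no adjusted p under 0.343. The largest difference was that of EHF, with 1089.5 ± 465 nt at 24 h and 1873.5 ± 42.2 nt in No Dox (SD, n = 3 each). ELF3 had 1071 ± 67.9 nt at 72 h and 1277 ± 33.2 nt in No Dox, and TFAP2A had 2424 ± 21.8 nt at 24 h and 2233 ± 79.0 nt in No Dox.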
